A study of Mus musculus with 4 samples.

Results

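The CD28 and B7 family comprises immune checkpoint receptors and the ligands that bind them. Its 10 members here, 5 receptors (Icos, Cd28, Ctla4, Pdcd1 and Btla) and 5 ligands (Icosl, Cd80, Cd86, Cd274 and Pdcd1lg2), were taken by gene symbol from the 22083 genes of the deposited table, and all 10 were found. Group 2 innate lymphoid cells (ILC2s) lack antigen receptors, reside in tissues and release type 2 cytokines. Their RNA was sequenced after cell sorting, in 2 libraries from small intestinal lamina propria (SI-ILC2s) and 2 libraries from white adipose tissue of the mesentery (WAT-ILC2s). All mice were wild-type C57BL/6 aged 9 weeks, with no treatment named. Neither the sort markers nor the number of mice behind each library is stated, so the spread between libraries that the p-values rest on may be technical.

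CD28 and ICOS are costimulatory receptors of lymphocytes that recruit phosphatidylinositol 3-kinase when they are bound. CD80 and CD86 bind CD28 and, more tightly, the inhibitory receptor CTLA-4, while ICOS has a ligand of its own, ICOSL. PD-1, the product of Pdcd1, is an inhibitory receptor for PD-L1 (Cd274) and PD-L2 (Pdcd1lg2), and BTLA is an inhibitory receptor for HVEM (Tnfrsf14), a protein of the TNF receptor superfamily. ILC2s are known to carry both ICOS and ICOSL, and PD-1 is known to restrain them.

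Transcripts of the receptors Icos, Pdcd1 and Cd28 were more abundant in SI-ILC2s, and those of the ligands Icosl and Cd274 in WAT-ILC2s. By mean RPKM (reads per kilobase of gene, scaled to sequencing depth), Icos was 3.94-fold, Pdcd1 2.14-fold and Cd28 12.6-fold higher in SI-ILC2s, whereas Icosl was 9.38-fold and Cd274 2.54-fold higher in WAT-ILC2s. All 5 of these passed the test across genes, though Cd28 reached the level needed for testing only in SI-ILC2s and so had to differ. Icos was the more abundant partner of its pair in the intestine, at 34.5 and 23.1 times the level of Icosl per library, but lay slightly below Icosl in adipose tissue, at 0.833 and 0.690 times. Cd80 and Cd86 were close to 0 in every library.

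The proximal promoters of the 3 members that passed the test and have an entry in the RefSeq table (build GRCm38.p6) are shown as the regulatory sequence next to those differences. Each run is the 250 bases before the RefSeq start site, 5′ to 3′ on the strand of the gene, with capitals for matches on either strand to any of 6 motifs, namely AGATAA for factors of the GATA family, TGANTCA for AP-1, TGGAAA for NFAT, TTCNNNGAA for STAT factors, GGGCGG for Sp1 and TATAAA for the TATA box.
Icosl, chr10:78069118-78069367, plus strand: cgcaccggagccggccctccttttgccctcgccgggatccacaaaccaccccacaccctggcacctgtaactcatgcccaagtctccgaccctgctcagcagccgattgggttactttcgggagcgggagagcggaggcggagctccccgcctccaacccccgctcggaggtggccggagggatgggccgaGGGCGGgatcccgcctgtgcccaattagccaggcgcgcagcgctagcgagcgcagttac
Cd274, chr19:29367188-29367437, plus strand: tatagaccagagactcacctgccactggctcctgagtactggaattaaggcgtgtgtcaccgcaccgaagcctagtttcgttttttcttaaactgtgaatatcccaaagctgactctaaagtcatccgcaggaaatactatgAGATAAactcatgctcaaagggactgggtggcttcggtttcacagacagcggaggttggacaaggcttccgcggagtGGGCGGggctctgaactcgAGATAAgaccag
Pdcd1, chr1:94052554-94052803, minus strand: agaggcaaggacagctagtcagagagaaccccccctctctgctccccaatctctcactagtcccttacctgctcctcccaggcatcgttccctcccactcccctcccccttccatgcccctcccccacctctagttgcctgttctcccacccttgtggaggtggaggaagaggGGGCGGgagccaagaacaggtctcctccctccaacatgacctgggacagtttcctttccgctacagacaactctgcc

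All 3 windows held 1 Sp1 match, a motif present in 32.7% of the 32851 promoter windows of the same length. In the GENCODE M21 annotation Icosl starts earlier, at 78069302, so the end of its window, with the Sp1 match, lies within that gene. Only the Cd274 window among these 3 held a GATA match, at 2 places, and 9.99% of all windows have at least 1. The window of Pdcd1lg2, a member that was not called between the tissues, also held a GATA match, 141 to 136 bases before the start. Matches to the AP-1, NFAT, STAT or TATA letters were not present in these 3 windows. The Icosl window was the richest of the 3 in G and C, at 68.8% with 23 CpG dinucleotides, against 60.4% and 3 for Pdcd1 and 50.4% and 11 for Cd274, and the medians of all windows were 52.4% and 6. Promoters of 7 members were matched, and those of Icos, Cd28 and Cd86 are not used here.

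Depth, estimated from the steps between low values of single-exon genes, was about 55700000 to 76100000 reads per library. Genes with at least 1 RPKM in at least 2 libraries were tested with limma on log2(RPKM + 1), SI-ILC2 minus WAT-ILC2, with Benjamini-Hochberg adjustment over all 8230 such genes and a threshold of 0.05. Changes of low genes come out too small on this scale. Calls toward SI-ILC2s numbered 1470 (17.9%) and those toward WAT-ILC2s 2436 (29.6%), against 1956 and 1817 after median-of-ratios scaling and 1772 and 1886 after quantile normalization. The log2 changes of the tested genes had a median of -0.15, which became 0.0015, -0.02 and -0.26 after median-of-ratios scaling, quantile normalization and rescaling to equal sums. All 12 ILC2 markers were tested, with 4 calls toward SI-ILC2s, 4 toward WAT-ILC2s and 4 genes not called (3 and 2 calls without SI-ILC2 replicate 1), and with the lineage factor gene Gata3 at 354 and 377 RPKM in SI-ILC2s, against 338 and 397 RPKM in WAT-ILC2s.

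The filter left 6 of the 10 members. Higher in SI-ILC2s were 3 members, all receptors (background 17.9%), higher in WAT-ILC2s were 2, both ligands (background 29.6%), and Pdcd1lg2 was not called. Cd28 passed the filter only through the SI-ILC2 libraries, so it had to differ between the tissues. Ctla4, Btla, Cd80 and Cd86 stayed below the filter. Without regard to it, the SI-ILC2 libraries were both higher than either WAT-ILC2 library for 5 of 5 receptors. That order was found in 23.0% of all genes of the table. The reverse held for 3 of 5 ligands (Icosl, Cd274 and Cd80), against 30.8% of all genes. Of these, Cd80 had only about 9 to 17 reads per library, and its difference was not called with no filter (limma adjusted p = 0.38). In bulk RNA, fewer cells that express a gene and less RNA per cell cannot be told apart, and neither can an effect of isolating cells from each tissue and a difference of the ILC2s themselves.

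**Figure D1:**
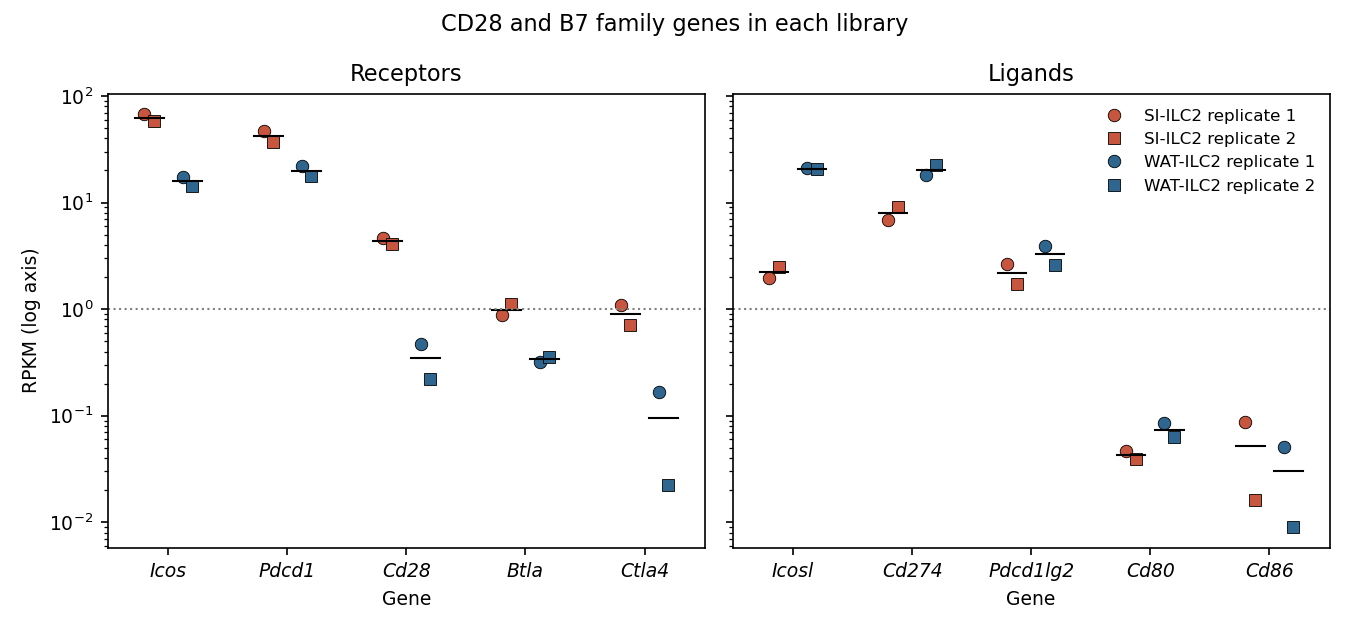
RPKM of the 5 receptors and the 5 ligands in each library on a log axis, with circles for replicate 1, squares for replicate 2, short lines for the means and a dotted line at 1 RPKM, the level used in the filter. Every receptor lies higher in the SI-ILC2 libraries, while Icosl and Cd274 lie higher in the WAT-ILC2 libraries and Cd80 and Cd86 lie below 0.1 RPKM throughout.

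Icos (chromosome 1, 60977927 to 61000320, plus strand, GENCODE M21 on GRCm38), the gene of the inducible costimulator, had 67.6 and 57.6 RPKM in SI-ILC2 replicates 1 and 2, against 17.5 and 14.3 RPKM in WAT-ILC2 replicates 1 and 2. The SI-ILC2 libraries stood well above the WAT-ILC2 libraries, with means of 62.6 ± 7.01 and 15.9 ± 2.30 RPKM (SD, n = 2 each). The log2 change was 1.91 ± 0.17 (SE, limma adjusted p = 5.8e-04), the 103rd largest toward SI-ILC2s of 8230. Icos ranked 325th and 395th of 22083 genes by RPKM in the SI-ILC2 libraries and 1163rd and 1437th in the WAT-ILC2 libraries.

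Pdcd1 (chromosome 1, 94038305 to 94052553, minus strand), which encodes the inhibitory receptor PD-1, had 47.2 and 37.2 RPKM in SI-ILC2s, against 21.8 and 17.7 RPKM in WAT-ILC2s. The groups did not overlap, and the gene was well expressed in both tissues, with means of 42.2 ± 7.09 and 19.7 ± 2.94 RPKM (SD, n = 2 each). The log2 change was 1.06 ± 0.18 (SE, limma adjusted p = 0.0049), a smaller change than that of Icos on this scale.

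Cd28 (chromosome 1, 60716800 to 60773359, plus strand), the prototype costimulatory receptor gene of T cells, had 4.63 and 4.09 RPKM in SI-ILC2s, against 0.469 and 0.223 RPKM in WAT-ILC2s. It was thus a low transcript in the intestine and lower still in adipose tissue, where its values corresponded to about 160 and 90 reads. The log2 change was 2.00 ± 0.15 (SE, limma adjusted p = 4.0e-04), and with a pseudocount of 0.1 in place of 1 it was 3.38 (adjusted p = 8.1e-04).

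The remaining receptors were rare. Ctla4 (chromosome 1, 60887000 to 60915832, plus strand), the gene of the inhibitory counterpart of CD28, had 1.09 and 0.708 RPKM in SI-ILC2s, against 0.169 and 0.0224 RPKM in WAT-ILC2s, the lowest value corresponding to about 3 reads. The SI-ILC2 libraries were the higher, and in a fit with no filter on low values the log2 change was 0.79 (limma adjusted p = 0.049, where 4.06% of 22083 genes were called in this direction). Btla (chromosome 16, 45224315 to 45257670, plus strand) had 0.874 and 1.11 RPKM in SI-ILC2s, against 0.317 and 0.359 RPKM in WAT-ILC2s. Its groups did not overlap either, but in the fit with no filter its log2 change of 0.57 was not called (limma adjusted p = 0.064).

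Among the ligands, Icosl (chromosome 10, 78069302 to 78083913, plus strand), which encodes the ligand of ICOS, had 1.96 and 2.49 RPKM in SI-ILC2s, against 21.03 and 20.7 RPKM in WAT-ILC2s. The WAT-ILC2 libraries were nearly equal and far above those of SI-ILC2s, with means of 2.22 ± 0.379 RPKM in SI-ILC2s, against 20.9 ± 0.234 RPKM in WAT-ILC2s (SD, n = 2 each). The log2 change was -2.77 ± 0.15 (SE, limma adjusted p = 1.9e-04), the 27th largest toward WAT-ILC2s of 8230 genes. On this scale it was the largest change of the 6 tested members, whereas by ratio of means, and with a pseudocount of 0.1 (-3.18 for Icosl), that of Cd28 was larger.

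Cd274 (chromosome 19, 29367455 to 29388095, plus strand), the gene of the PD-1 ligand PD-L1, had 6.90 and 9.15 RPKM in SI-ILC2s, against 18.1 and 22.6 RPKM in WAT-ILC2s. Both tissues expressed it, the WAT-ILC2 libraries more so, with means of 8.03 ± 1.59 and 20.4 ± 3.18 RPKM (SD, n = 2 each). The log2 change was -1.25 ± 0.19 (SE, limma adjusted p = 0.0031). Its exons share 511 bases with an antisense gene, and reads of the pair cannot be told apart if strand was not used in the counting, which is not stated.

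Pdcd1lg2 (chromosome 19, 29410919 to 29471161, plus strand), which encodes the other PD-1 ligand, PD-L2, had 2.65 and 1.72 RPKM in SI-ILC2s, against 3.92 and 2.61 RPKM in WAT-ILC2s. The groups overlapped. Its log2 change of -0.42 ± 0.22 (SE) did not pass the test (limma adjusted p = 0.16). It passed without WAT-ILC2 replicate 2 (log2 change -0.64, limma adjusted p = 0.011) and with the replicate block (0.0060). It was smaller without WAT-ILC2 replicate 1 (-0.20, limma adjusted p = 0.47) or SI-ILC2 replicate 2 (-0.21, limma adjusted p = 0.55).

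The classical ligands of CD28 and CTLA-4 were nearly undetected. Cd80 (chromosome 16, 38455561 to 38496335) had 0.0464 and 0.0394 RPKM in SI-ILC2s, against 0.0847 and 0.0626 RPKM in WAT-ILC2s, or about 9 to 17 reads per library. Cd86 (chromosome 16, 36603869 to 36666081) had 0.0878 and 0.0163 RPKM in SI-ILC2s, against 0.0513 and 0.0090 RPKM in WAT-ILC2s, or about 2 to 24 reads. Cd86 varied more between libraries of a tissue than between tissues, and no difference of either gene was detectable at this depth.

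**Figure D2:**
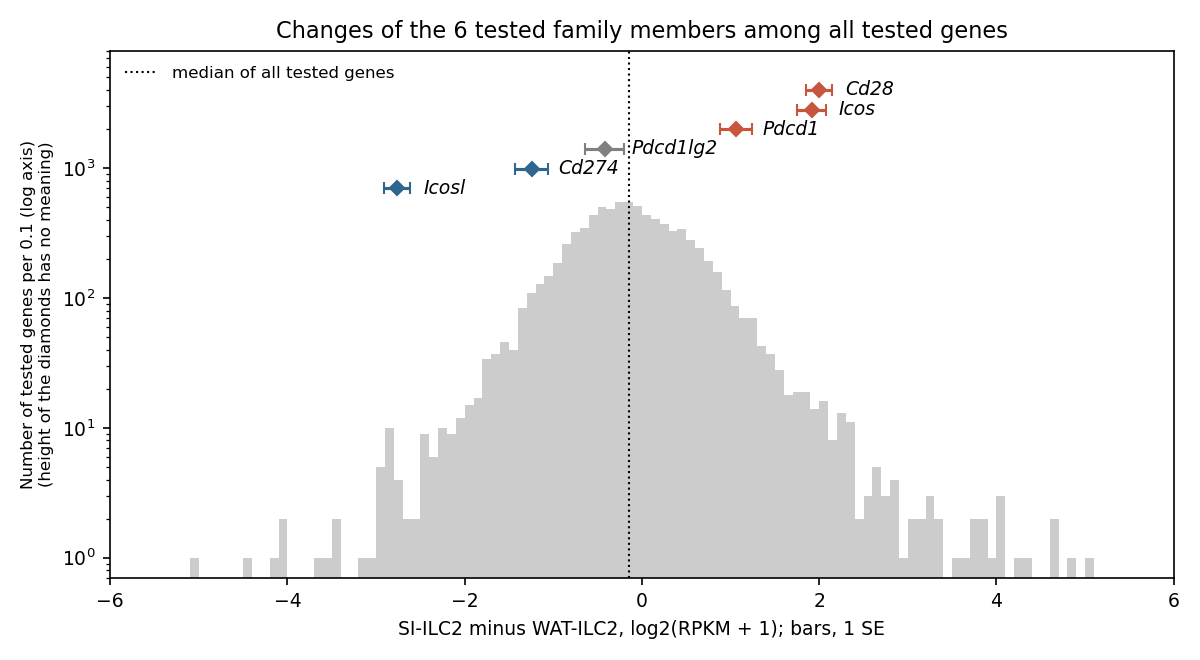
Changes of the 6 tested members on the log2(RPKM + 1) scale, SI-ILC2 minus WAT-ILC2, as diamonds with bars of 1 SE, above a histogram of the changes of all 8230 tested genes on a log axis. Cd28 and Icos lie far to the right and Icosl far to the left of the median of all tested genes (-0.15), and Pdcd1lg2 lies close to it.

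The order of the members by level per length also differed between the tissues. In SI-ILC2s Icos was the highest, followed by Pdcd1, Cd274 and Cd28, with no overlap between these neighbours. Icosl and Pdcd1lg2 came next and overlapped each other, as did Btla and Ctla4 and, at the bottom, Cd86 and Cd80. In WAT-ILC2s the 3 highest, Icosl, Cd274 and Pdcd1, could not be ordered beyond their spread, at means of 20.9, 20.4 and 19.7 RPKM. Icos was below them at 15.9 RPKM, followed by Pdcd1lg2, then Cd28 and Btla, which overlapped, then Ctla4 and Cd80, which also overlapped. Cd86 was last by mean, though its range overlapped that of Ctla4.

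Read as pairs, the ratios of receptor to ligand were higher in both SI-ILC2 libraries for every pair but Btla and Tnfrsf14. These ratios restate the differences of the single genes given above, and most pairs share a gene with another pair. The share of all gene pairs with such an order was not computed, so the number of pairs is not a result of its own. The ratio of the RPKM of Icos to that of Icosl was 34.5 and 23.1 in the SI-ILC2 libraries, against 0.833 and 0.690 in the WAT-ILC2 libraries. A ratio within a library does not depend on how libraries are scaled to each other. The difference of the mean log2 ratios was 5.22, and the exact permutation test gave p = 0.333, two-sided, the smallest that 2 libraries against 2 allow, so no such test can pass 0.05 here.

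The PD-1 pairs shifted less. Pdcd1 was at 6.85 and 4.07 times the RPKM of Cd274 in SI-ILC2s, against 1.20 and 0.781 times in WAT-ILC2s, a difference of 2.44 in the mean log2 ratio. For Pdcd1 and Pdcd1lg2 the ratios were 17.9 and 21.6 in SI-ILC2s, against 5.56 and 6.77 in WAT-ILC2s, a difference of 1.68. In both pairs the libraries of the tissues did not overlap, and Pdcd1 exceeded Pdcd1lg2 in all 4 libraries but exceeded Cd274 in 3.

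The pairs of Cd28 and Ctla4 with Cd80 and Cd86 were dominated by the near absence of the ligands. Cd28 was at 99.9 and 104 times the RPKM of Cd80 in SI-ILC2s, against 5.54 and 3.56 times in WAT-ILC2s, and these ratios rest on the few reads of Cd80. Btla has its ligand outside the B7 family, and this gene, Tnfrsf14, had 0.129 and 0.242 RPKM in SI-ILC2s, against 0.0464 and 0.0392 RPKM in WAT-ILC2s. The ratio of Btla to Tnfrsf14 was 6.75 and 4.57 in SI-ILC2s, against 6.82 and 9.16 in WAT-ILC2s, the one pair of 8 in which WAT-ILC2s had the higher ratios. The groups were barely apart, at 6.75 against 6.82, and these ratios rest on the low values of Tnfrsf14. All 8 pairs gave the same exact permutation p, which was 0.333 before and after Benjamini-Hochberg adjustment.

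**Figure D3:**
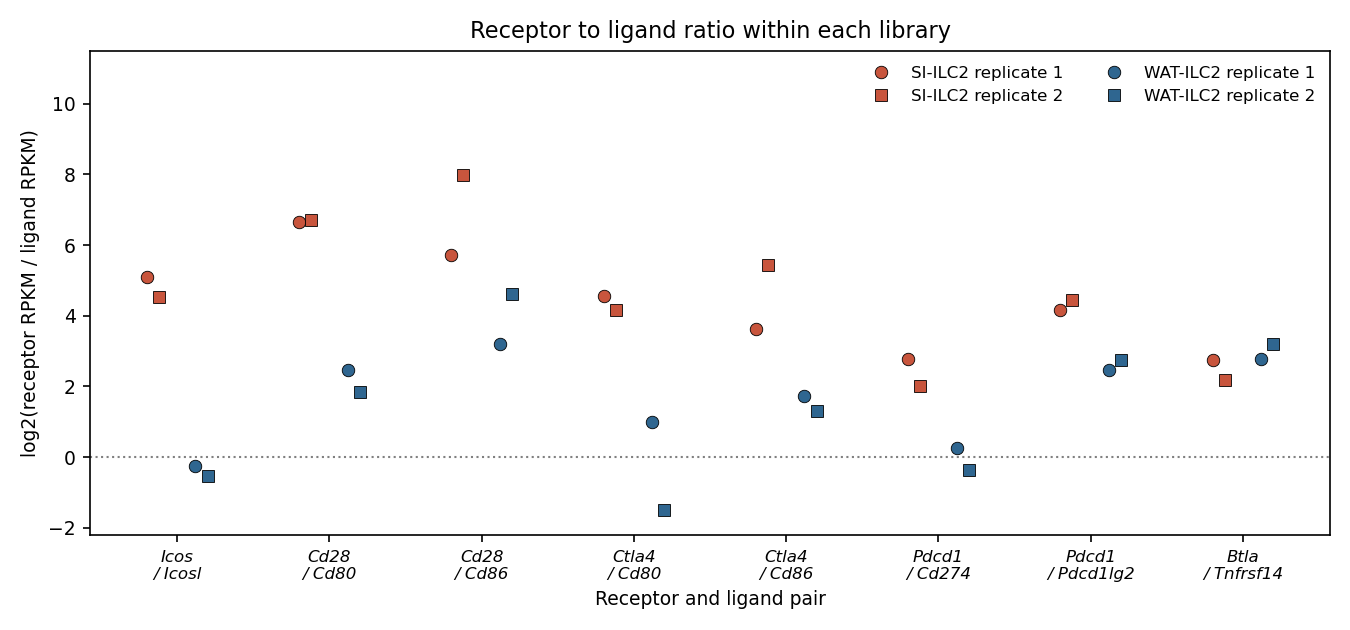
Log2 ratio of receptor RPKM to ligand RPKM within each library for the 8 receptor and ligand pairs, with 0 where both are equal. Icos exceeds Icosl by far in SI-ILC2s (ratios 34.5 and 23.1) and lies just below it in WAT-ILC2s (0.833 and 0.690), and the ratio of Pdcd1 to Cd274 shifts the same way.

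Several members are neighbours in the genome. Cd28, Ctla4 and Icos lie side by side on the plus strand of chromosome 1, with gaps of 113640 and 62094 bases. All 3 were higher in both SI-ILC2 libraries, an order found in 23.0% of all genes. The filter fixed the direction of Cd28, and Ctla4 stayed below the filter, at about 22 and 3 reads in the WAT-ILC2 libraries. Of the genes that flank this cluster, Raph1, which encodes an actin regulator of cell protrusions, had 1.16 and 1.69 RPKM in SI-ILC2s against 0.353 and 0.478 RPKM in WAT-ILC2s (limma adjusted p = 0.0067). On the other flank, Pard3b, a cell polarity gene, had 0.402 and 0.580 RPKM in SI-ILC2s against 1.29 and 1.18 RPKM in WAT-ILC2s (limma adjusted p = 0.0092). Raph1 passed the filter only through the SI-ILC2 libraries and Pard3b only through the WAT-ILC2 libraries, so the filter fixed both directions, and neither was called with no filter (limma adjusted p = 0.062 and 0.069).

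Cd274 and Pdcd1lg2 lie 22823 bases apart on chromosome 19. Plgrkt, which encodes a plasminogen receptor, starts on the opposite strand, 64 bases from the annotated start of Cd274 and within the Cd274 window printed above. It had 9.89 and 9.28 RPKM in SI-ILC2s, against 13.6 and 13.0 RPKM in WAT-ILC2s, a smaller difference in the same direction as that of Cd274 (log2 change -0.43, limma adjusted p = 0.038). Its call was lost in 7 of 11 alternatives, among them median-of-ratios scaling and each library left out, with adjusted p-values up to 0.21 (limma). Ric1, beyond Pdcd1lg2, was not called (log2 change 0.18, limma adjusted p = 0.30). The table neighbours of Icosl, Dnmt3l and D10Jhu81e, were at or below 0.221 RPKM in every library.

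The genes whose centred log2(RPKM + 1) values over the 4 libraries lay closest to those of Icos were Rxrg, Cd28 and Ftl1, with root mean square differences of 0.040, 0.050 and 0.051. Those closest to Icosl were Map6, Pcsk1 and Ptgir, with differences of 0.053, 0.061 and 0.077. Ptgir, the prostacyclin receptor gene, had 6.61 and 8.52 RPKM in SI-ILC2s, against 50.9 and 56.04 RPKM in WAT-ILC2s. With 4 libraries in 2 groups this likeness mostly restates a similar difference between the tissues, and Ftl1 has near-identical copies whose reads the counting could have split.

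Relatives and partners of the family were mostly too low to be tested. Of 12 such genes, 9 stayed below the filter, among them Cd276 and Vtcn1, the genes of B7-H3 and B7-H4, which were below 0.1 RPKM. Cd160, which encodes a receptor that shares HVEM with BTLA, had 3.21 and 2.61 RPKM in SI-ILC2s, against 0.0393 and 0.0674 RPKM in WAT-ILC2s. It was called (log2 change 1.89 ± 0.13, SE, limma adjusted p = 3.0e-04), but like Cd28 it passed the filter only through the SI-ILC2 libraries and so had to differ. Vsir, the gene of the inhibitory B7 relative VISTA, had 16.01 and 13.04 RPKM in SI-ILC2s, against 12.4 and 9.44 RPKM in WAT-ILC2s (limma adjusted p = 0.13). Tnfsf14, which encodes LIGHT, another HVEM ligand, had 43.2 and 37.1 RPKM in SI-ILC2s, against 48.4 and 40.5 RPKM in WAT-ILC2s (limma adjusted p = 0.50).

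Other checkpoint genes, outside the CD28 and B7 family, gave 3 of 8 calls toward SI-ILC2s (background 17.9%) and 3 toward WAT-ILC2s (background 29.6%). The inhibitory receptor genes Tigit and Havcr2 (TIM-3) were higher in SI-ILC2s, Tigit at 2.10 and 2.50 RPKM, against 0.168 and 0.190 RPKM in WAT-ILC2s, as was Cd96 at 33.5 and 29.9 RPKM, against 10.8 and 9.52 RPKM in WAT-ILC2s. Cd226, which encodes the activating receptor that competes with TIGIT for shared ligands, had 1.80 and 2.06 RPKM in SI-ILC2s, against 11.4 and 9.28 RPKM in WAT-ILC2s. Cd48 and Lgals9, ligand genes of 2B4 and TIM-3, were also higher in WAT-ILC2s. Tigit and Havcr2 passed the filter only through the SI-ILC2 libraries and so had to differ. This leaves Cd96 as the only call toward SI-ILC2s whose direction the filter did not fix. Adjusted p-values of the 6 called genes ranged from 5.2e-04 to 0.013 (limma), and the call of Lgals9 was lost without SI-ILC2 replicate 2 (0.10).

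Signalling genes below the costimulatory receptors were called in both directions. Of 22 tested genes, 3 were called toward SI-ILC2s (background 17.9%) and 11 toward WAT-ILC2s (background 29.6%), or 3 and 8 after median-of-ratios scaling (backgrounds 23.8% and 22.1%). Among the 11, 1 gene passed the filter only through the WAT-ILC2 libraries, so the filter fixed its direction. With no filter that gene was not called (limma adjusted p = 0.071). With no filter, 6 of 25 genes were called toward WAT-ILC2s, beside 1349 of all 22083 genes. With the replicate number as a block 16 of 22 were, beside 3430 of all 8230 genes. The median log2 change was -0.60, beside -0.15 for all tested genes. Without SI-ILC2 replicate 1 it was -0.53, beside -0.12. On the WAT-ILC2 side were Malt1, a paracaspase that acts in NF-kappaB signalling, at 1.79 and 2.75 RPKM in SI-ILC2s, against 13.3 and 15.8 RPKM in WAT-ILC2s, and Prkcq, the kinase PKC-theta, at 6.57 and 6.41 RPKM in SI-ILC2s, against 20.0 and 23.7 RPKM in WAT-ILC2s. Pik3cd, the catalytic p110-delta subunit that acts below ICOS and CD28, was on the same side at 3.14 and 2.82 RPKM in SI-ILC2s, against 8.33 and 7.91 RPKM in WAT-ILC2s. The SI-ILC2 side held Foxo1, a transcription factor that AKT restrains, at 12.7 and 14.7 RPKM in SI-ILC2s, against 3.76 and 3.93 RPKM in WAT-ILC2s, with Pik3r1, a regulatory PI3K subunit, and the adaptor gene Grb2, whose call was lost without either SI-ILC2 library.

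Of 13 tested genes of inhibitory signalling, 2 were called toward SI-ILC2s (background 17.9%) and 5 toward WAT-ILC2s (background 29.6%), or 4 and 4 after median-of-ratios scaling (backgrounds 23.8% and 22.1%). Without either SI-ILC2 library the counts were 1 and 4. Ptpn6 and Ptpn11, the genes of the phosphatases SHP-1 and SHP-2 that PD-1 and BTLA recruit, were not called, with adjusted p-values of 0.21 and 0.077 (limma), though Ptpn11 was called higher in SI-ILC2s after median-of-ratios scaling (adjusted p = 0.039). Ptpn22, a phosphatase that dampens antigen receptor signals, had 50.5 and 55.4 RPKM in SI-ILC2s, against 20.6 and 21.9 RPKM in WAT-ILC2s. Inpp5d, the lipid phosphatase SHIP-1 that opposes PI3K, had 5.35 and 4.83 RPKM in SI-ILC2s, against 13.7 and 13.4 RPKM in WAT-ILC2s, and Dgka, a diacylglycerol kinase gene, Pag1 and Csk were also higher in WAT-ILC2s.

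**Figure D4:**
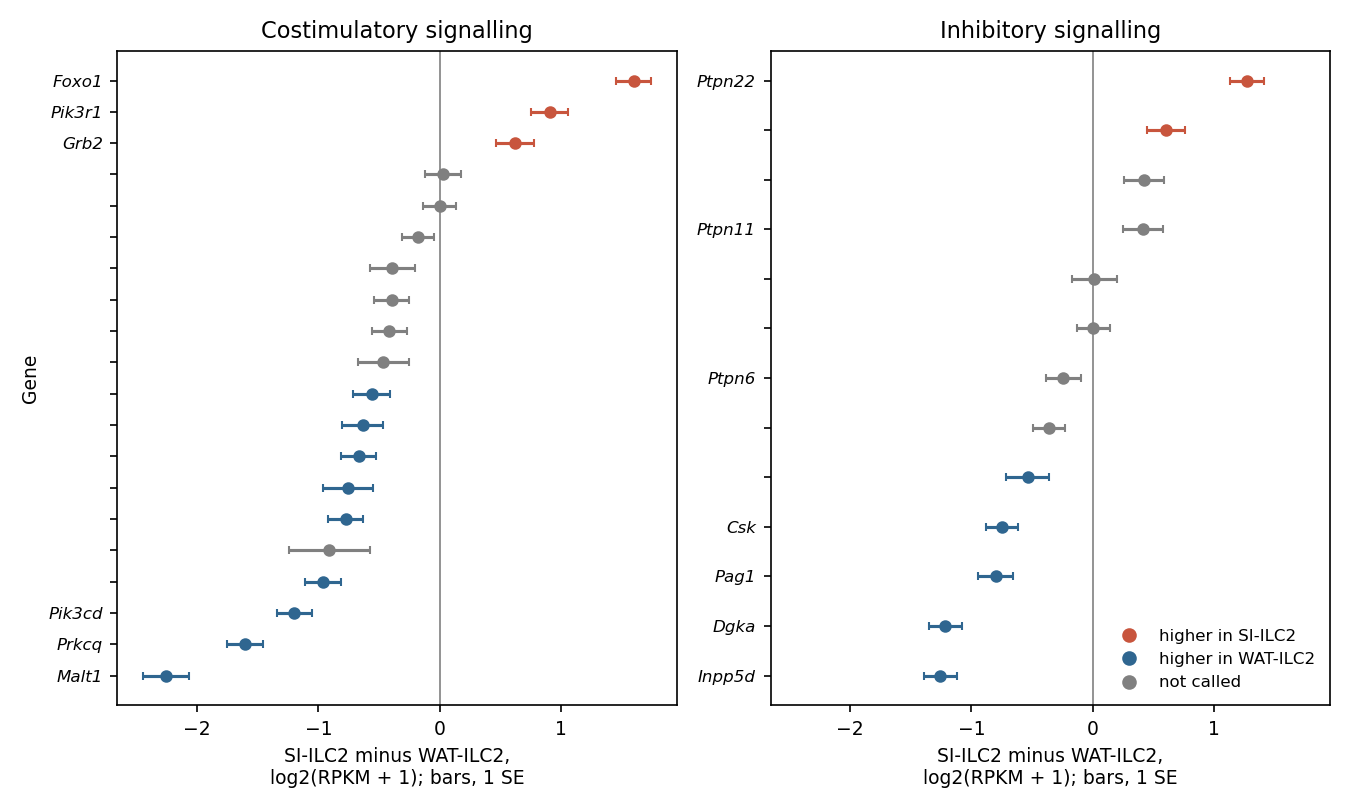
Changes on the log2(RPKM + 1) scale, SI-ILC2 minus WAT-ILC2, of 20 of the 22 tested genes of costimulatory signalling and the 13 of inhibitory signalling, with bars of 1 SE, names for the genes given in the text and colours for genes called at a limma adjusted p below 0.05. Of the called genes in the costimulatory panel, 3 lie on the SI-ILC2 side and 9 on the WAT-ILC2 side, led by Malt1 and Prkcq.

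Genes that set the level of checkpoint mRNA or protein included 9 that were tested, of which 3 were called toward WAT-ILC2s, near the background of 29.6%, and 6 were not called. The 3 became 2 after median-of-ratios scaling (background 22.1%) and 6 with the replicate block, where 3430 of all 8230 genes were called in this direction. The median log2 change of the 9 genes was -0.37, beside -0.15 for all tested genes. Without SI-ILC2 replicate 1 it was -0.29, beside -0.12. Cmtm6, which encodes a membrane protein that stabilizes PD-L1, had 17.7 and 26.1 RPKM in SI-ILC2s, against 41.3 and 57.2 RPKM in WAT-ILC2s (log2 change -1.14, limma adjusted p = 0.0099), the same direction as Cd274. The call of Cmtm6 was lost with no filter (limma adjusted p = 0.073). Adam10, the gene of a protease that sheds ICOSL, had 5.30 and 5.70 RPKM in SI-ILC2s, against 8.87 and 7.37 RPKM in WAT-ILC2s, and its call (limma adjusted p = 0.039) was lost after median-of-ratios scaling (0.13) and in 5 further alternatives. Rc3h1 and Rc3h2, which encode roquins that repress Icos mRNA, were not called. In the interferon-gamma pathway, which induces Cd274, 1 of 6 tested genes, Jak2, was called toward SI-ILC2s (background 17.9%) and 3, Ifngr2, Jak1 and Irf1, toward WAT-ILC2s (background 29.6%), and after median-of-ratios scaling these counts were 1 and 0. They were also 1 and 0 without SI-ILC2 replicate 1, 0 and 0 without SI-ILC2 replicate 2, and 1 and 1 without either WAT-ILC2 library.

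Other cells also express the family, so their markers are given beside it. T cells carry the receptors, and the summed level of 12 T cell markers was 39.4 and 33.8 RPKM in SI-ILC2s, against 80.9 and 59.5 RPKM in WAT-ILC2s, with 1 of 5 tested genes called toward SI-ILC2s (background 17.9%) and 3 toward WAT-ILC2s (background 29.6%). These counts were 1 and 2 after median-of-ratios scaling and 0 and 0 without SI-ILC2 replicate 2. Lat and Cd3g made up most of the summed level, while Cd3d, Cd4, Cd8a, Cd8b1 and Cd5 did not exceed 0.211 RPKM in any library. The call toward SI-ILC2s was that of Cd6, which passed the filter only through the SI-ILC2 libraries. Its direction was thus fixed, and its call was lost with no filter. Antigen-presenting cells carry the ligands, and 12 markers of macrophages and dendritic cells summed to 10.8 and 9.02 RPKM in SI-ILC2s, against 20.04 and 20.5 RPKM in WAT-ILC2s, with 3 of 5 tested genes higher in WAT-ILC2s (background 29.6%). Over all libraries Xcr1 and Lyz2 were the most abundant of these. Lyz2 had 0.633 and 0.331 RPKM in SI-ILC2s, against 3.53 and 5.50 RPKM in WAT-ILC2s, and passed the filter only through the WAT-ILC2 libraries. The macrophage marker Adgre1 (F4/80) had 0.0868 and 0.0316 RPKM in SI-ILC2s, against 0.357 and 0.689 RPKM in WAT-ILC2s. Both were thus higher in the tissue in which Icosl and Cd274 were higher. Cd68 and Cd14, on the same list, were tested and not called (log2 changes -0.035 and -0.30, limma adjusted p = 0.93 and 0.30). Csf1r was at 0.525 and 0.537 RPKM in SI-ILC2s, against 0.534 and 0.424 RPKM in WAT-ILC2s, and Itgax, Flt3, Fcgr1, Clec9a and Ciita were below 0.1 RPKM throughout. Of 6 B cell markers, which summed to 17.8 and 13.5 RPKM in SI-ILC2s, against 3.19 and 2.66 RPKM in WAT-ILC2s, only Cd79b passed the filter and was higher in SI-ILC2s, and Ms4a1 stayed below 0.1 RPKM.

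Stromal, endothelial and epithelial cells can carry ICOSL or PD-L1 as well. Fibroblast markers summed to 0.462 and 0.532 RPKM in SI-ILC2s, against 9.88 and 4.48 RPKM in WAT-ILC2s, led in WAT-ILC2s by Dcn and Col3a1, the 2 genes tested, which passed the filter only through the WAT-ILC2 libraries and so had to differ. Adipocyte markers summed to 0.731 and 0.348 RPKM in SI-ILC2s, against 4.67 and 4.02 RPKM in WAT-ILC2s, of which Fabp4 made up 0.257 and 0.172 RPKM in SI-ILC2s, against 4.32 and 3.43 RPKM in WAT-ILC2s, with Adipoq at or below 0.121 RPKM. Endothelial markers summed to 4.39 and 5.68 RPKM in SI-ILC2s, against 3.74 and 5.50 RPKM in WAT-ILC2s, mostly Pecam1, which was called higher in SI-ILC2s, though in 6 of 11 alternatives only. The WAT-ILC2 libraries were the higher for Cdh5, with 0.175 and 0.332 RPKM in SI-ILC2s, against 0.592 and 0.821 RPKM in WAT-ILC2s, and likewise for Kdr and Vwf, none of which was tested. Mesothelial markers did not exceed 0.562 RPKM each, with no gene tested. Epithelial markers summed to 5.58 and 13.2 RPKM in SI-ILC2s, against 9.21 and 8.52 RPKM in WAT-ILC2s, with Epcam, which was called higher in WAT-ILC2s but not after median-of-ratios scaling, as the largest part in every library, and Krt8 reached 4.32 RPKM in SI-ILC2 replicate 2 alone. Each marker had a value above 0 in at least 1 library. The part of these cells in the differences of the family was not tested.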

How the data were processed

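RNA-seq values of 2 SI-ILC2 and 2 WAT-ILC2 libraries were analysed. A KAPA kit was used on total RNA, per the labels. The authors deposited RPKM values in 1 table with a column per library and no pooling of replicates. The submitters' processing notes name STAR 2.6.0, featureCounts 1.6.0 (Subread) and the mouse build GRCm38 (mm10). The annotation, the strand setting and any filter are not stated there. RPKM corrects for gene length and depth but not for composition, so abundant transcripts can lower all others. Groups and replicate numbers came from the sample titles.

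Count models do not apply to RPKM. Values were compared with limma 3.58.1 in R 4.3.3 (log2(RPKM + 1), variance trend, no covariate), after steps were tested on simulated data. The prior added 4.39 degrees of freedom to 2. Approximate reads are RPKM times the exon length in GENCODE M21 times the depth at which most values of single-exon genes were whole within 0.1 (79.8% to 81.7%), and cover counting error only. Of the whole values, 66.5% to 71.0% were even, so the depth and the approximate reads may be too high. Pair ratios used exact permutation over libraries. The members and gene lists were chosen with earlier results of these data known. Named genes are all members, of each list up to 4 called genes each way, of each marker list the 2 most abundant, the 3 genes most like Icos and Icosl, and neighbours. Uncalled list genes, and markers near 0, were added after their values were seen. Older symbols served for Vsir, Nectin2, Marchf1 and Adgre1. Alternatives were the pseudocount, the filter, the scaling, the replicate number as a block and each library left out. Tables were handled with pandas 2.3.3 in Python 3.11.15 and figures drawn with matplotlib 3.10.9. Some genes of these lists count in the totals and are not reported here by name.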

Additional observations from a re-analysis of the deposited data

How the results depend on the processing

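The 5 called members kept their direction and their call under all 11 alternatives, with adjusted p-values (limma) up to 0.041 (Pdcd1 with no filter). For Cd28 this says little, since it passed the filter only through the SI-ILC2 libraries. Every alternative that kept the filter thus had its direction fixed, and with no filter its adjusted p was 0.012 (limma). Members called higher in SI-ILC2s numbered 3, or 4 with no filter (Ctla4 added), and those higher in WAT-ILC2s 2, or 3 without WAT-ILC2 replicate 2 and with the replicate number as a block (Pdcd1lg2 added, adjusted p = 0.011 and 0.0060). The labels do not say that a replicate number marks a shared mouse or day. With 2 libraries a tissue the check is weak: the differences between replicates 1 and 2 of the tissues correlated at r = 0.57 across 8230 genes, which are not independent. With the replicate block, 2271 genes of the whole table were called higher in SI-ILC2s (1470 without it) and 3430 higher in WAT-ILC2s (2436 without it), and the log2 ratio of Icos to Icosl differed by 5.22, as without it. With no filter 896 and 1349 of 22083 genes were called, with many more low genes tested. Leaving out a library gave 983 to 1595 genes higher in SI-ILC2s and 1492 (without SI-ILC2 replicate 1) to 2551 higher in WAT-ILC2s, with a lone library assumed to vary like the other tissue. The prior degrees of freedom of limma, 4.39 in the reported fit, were 40.7 with the block and 428 and 195 without WAT-ILC2 replicates 1 and 2, so p-values of these 3 fits rest almost wholly on the spread shared by all genes. The Icos to Icosl difference ranged from 4.93 to 5.51 on the log2 scale without a library and was 4.68 with a pseudocount of 1. Cd80, Cd86, Ctla4 and Btla rest on few reads, which limits what can be said of them.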
